A study of Homo sapiens with 22 samples.

Results

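The 10 genes followed here are read as surface markers of myeloid maturation, and they were measured by mRNA-seq of acute myeloid leukemia (AML) cells treated with FP54, a heterobifunctional degrader of the m6A demethylase FTO. The members were ITGAM (CD11b), ITGAX (CD11c), ITGB2 (CD18), CD14, CD68, CD86, CD33, CD38, CSF1R (CD115) and FCGR1A (CD64), found by gene symbol. All 10 were found among the 20411 genes of each expression table. MOLM-13 and NB4 cells, both wild type in the labels, received 2 μM FP54 or the solvent DMSO for 48 hours, with 3 libraries per treatment in each cell line. MOLM-13 is a monocytic AML line with an MLL fusion and NB4 is an acute promyelocytic leukemia line. Each is a single established line, so the libraries speak for that line alone. Nothing in the labels says that the libraries of a group were grown as separate cultures, so p-values measure the spread between these libraries, which may be technical. The study asked, among other questions, whether loss of FTO alters the differentiation state of leukemia cells, and for that it stained CD11b and CD14 protein. That staining followed a longer treatment, at the dose used here and at a higher one. The paper reports more CD11b and CD14 in NB4 cells at the higher dose. In MOLM-13 cells it reports more CD14 but not more CD11b.

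Myeloid cells change their surface as they mature. The alpha chains CD11b and CD11c reach the cell surface as pairs with the shared beta 2 chain CD18, and these pairs bind complement fragments and adhesion molecules. CD14 hands bacterial lipopolysaccharide to TLR4, CD64 is a high-affinity receptor for IgG, CSF1R is the receptor for the macrophage growth factors CSF1 and IL34, and CD86 costimulates T cells. CD68 lies mostly in the lysosomal membrane of macrophages. CD33, a sialic acid binding lectin, and CD38, an enzyme that breaks down NAD, are already found on immature myeloid cells. A rise of CD11b is a common readout of maturation in AML lines, and CD14 is a common readout of the monocytic branch.

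The values are RPKM, read counts scaled by gene length and by library total, so levels can be set side by side between genes. The tables of the cell lines were made separately. The libraries held between 5835173 and 22342375 reads on genes. FP54 replicate 2 of MOLM-13 was the shallowest, and the 3 FP54 libraries of NB4 (10599156 to 13075070 reads) were all shallower than its DMSO libraries (20655341 to 22342375). FTO mRNA was 1.01 ± 0.0767 RPKM (SD, n = 3) with DMSO and 1.01 ± 0.118 with FP54 in MOLM-13 cells, and 2.73 ± 0.180 and 2.03 ± 0.0782 in NB4 cells, which does not check the degrader because FP54 acts on FTO protein. The leukemia HOXA9 and MEIS1 genes of MLL-fusion cells were at 21.3 and 6.36 RPKM in MOLM-13 cells with DMSO and at 0.234 and 0.157 in NB4 cells, and MPO, the myeloperoxidase of promyelocytes, was at 16.1 and 2170.2 RPKM. HOXA9 and MEIS1 come from a list of 6 such genes, with HOXA5, HOXA7, HOXA10 and PBX3. With DMSO the list summed to 79.9 to 86.1 RPKM in MOLM-13 cells, with 6 genes at 1 RPKM or more. In NB4 cells it summed to 15.2 to 17.0 RPKM, with 2 at that level, and HOXA10 averaged at least 5 RPKM over both treatments. Of the T cell genes, CD3E was at 0.0225 RPKM in MOLM-13 and 0.00607 in NB4 cells with DMSO, while CD3D was at 0.519 and 6.35. The erythroid gene HBA2 was at 0 in all 12 libraries, while EPOR, the erythropoietin receptor, averaged at least 5 RPKM in MOLM-13 cells.

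The members are spread over several chromosomes (hg38, GENCODE v44), except for the integrin alpha chains. ITGAM (chr16:31259967-31332892) and ITGAX (chr16:31355134-31382999) lie next to each other on the plus strand, and CD14 (chr5:140631728-140633700) and CSF1R (chr5:150053291-150113372) lie on the minus strand of chromosome 5. ITGB2 is at chr21:44885953-44931989, CD68 at chr17:7579491-7582111, CD86 at chr3:122055362-122121139, CD33 at chr19:51225064-51243860, CD38 at chr4:15778275-15853232 and FCGR1A at chr1:149782671-149791675. The promoters are shown first, since many of these genes are textbook targets of PU.1, the myeloid ETS factor. RefSeq promoter windows (GRCh38.p14, 250 bases before to 50 bases after each gene start) were at hand for 8 members, in 10 windows because CD86 and CSF1R have alternative starts. ITGAX and ITGB2 had none. The core of PU.1 sites, searched as GAGGAA on either strand, was present in 7 of the 8 members, or 7 of their 10 windows, and in 28.0% of all 21519 windows. For each of the 7 the match closest upstream of the start is shown in 30 bases of the gene's strand, 5′ to 3′, with the core, or its complement TTCCTC, in capitals.
ITGAM, chr16:31259836-31259865 (+): caggaagctgggGAGGAAgggtgggcaggc
CD14, chr5:140633254-140633283 (-): ggggctggctcgGAGGAAgagaggtgggga
CD68, chr17:7579578-7579607 (+): tgagactttcatTTCCTCctttccaagaga
CD86, chr3:122055307-122055336 (+): ctgtagagaaaaGAGGAAcagcttctctta
CSF1R, chr5:150086551-150086580 (-): aaggaggaggaaGAGGAAaacaagacaaac
FCGR1A, chr1:149782636-149782665 (+): aaggcaatttccTTCCTCttttctaatttg
CD33, chr19:51225058-51225087 (+): ccctccactcccTTCCTCttttctgctcac
The CSF1R window lies at the more downstream of its starts and repeats the core in lower case just before the capitals. The GC box GGGCGG was found in 3 members (CSF1R, ITGAM and CD33) and in 56.8% of all windows, the AP-1 site TGANTCA in 3 (CD14, CSF1R and CD68) and in 6.16%, the C/EBP motif TTGCNNAA in CD68 alone and in 8.71%, and the E box CACGTG in 0 and in 8.35%. For each motif the number of member windows with it, out of 10, was the same as the number of members. The 5 motifs were searched separately on both strands, and each letter match is a description, not evidence of binding. The genes that share the PU.1 core went different ways with FP54, as the values below show.

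With DMSO the cell lines carried these genes at different levels. In MOLM-13 cells CD68 was highest at 192 ± 8.22 RPKM (SD, n = 3), followed by ITGB2 at 75.5 ± 3.50. CD33 and CD86 came next with overlapping libraries, and FCGR1A, ITGAX, CSF1R and ITGAM lay between 14.8 and 18.1 RPKM, each overlapping its neighbour in the order. CD38 (4.93 RPKM) and CD14 (0.533 RPKM) were lowest and stood apart from their neighbours. In NB4 cells the order was ITGB2, CD33, CD68, CD38, FCGR1A, ITGAM, CSF1R, CD86, ITGAX and CD14, running from 30.7 to 0.141 RPKM, and only CD38 and FCGR1A overlapped. With FP54 ITGAM moved from the sixth to the third place in NB4 cells, at 14.3 RPKM, where its libraries overlapped those of CD33 (13.5 RPKM). In MOLM-13 cells with FP54 CD68 and ITGB2 kept the top of the order.

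**Figure D1:**
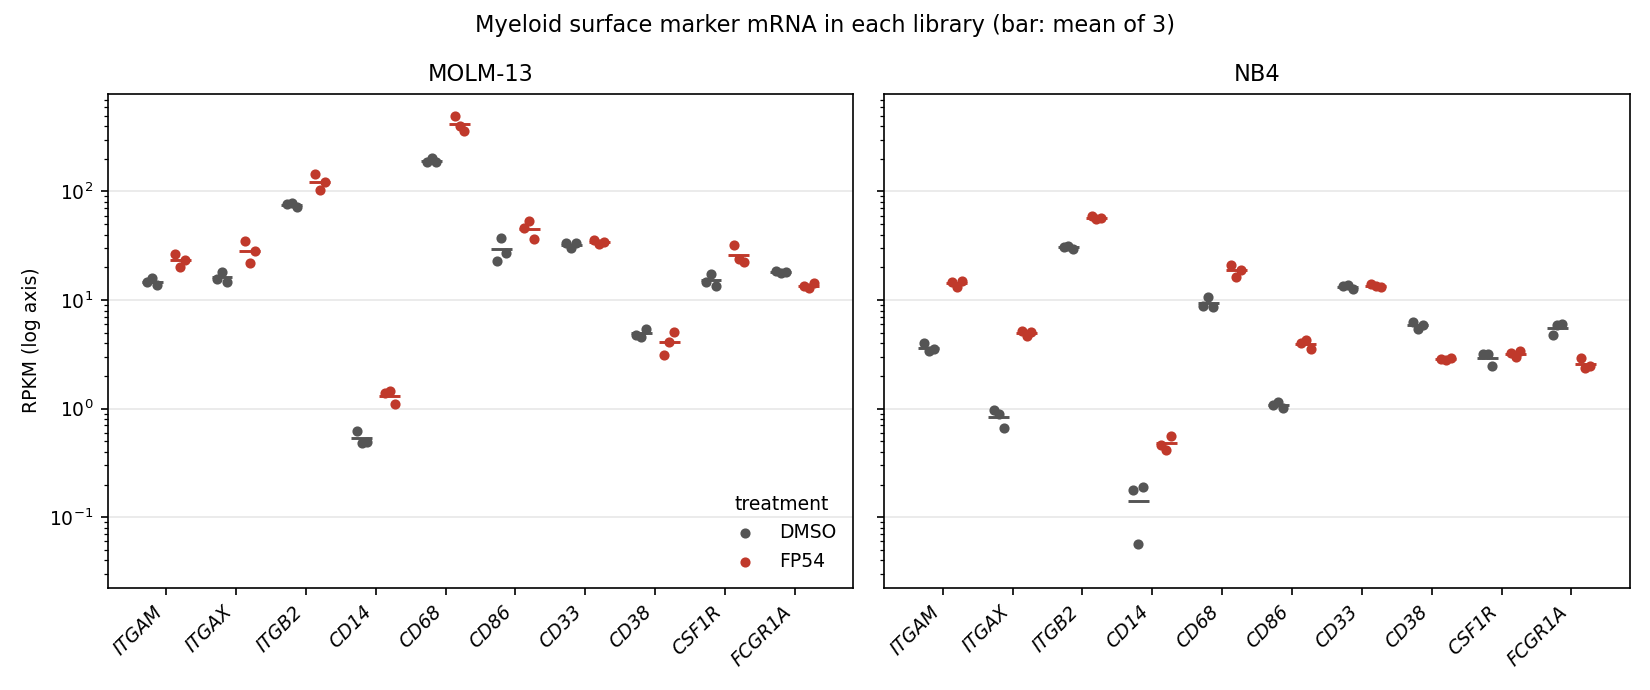
RPKM (log axis) of the 10 marker genes in each library of MOLM-13 (left) and NB4 cells (right), with DMSO in grey and FP54 in red, points for libraries and bars for the mean of 3. ITGAM, ITGAX, ITGB2, CD14 and CD68 are higher with FP54 in every library of both lines, FCGR1A is lower in every library of both lines, and CD33 overlaps in both.

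In MOLM-13 cells FP54 raised 6 of the 9 members that passed the filter on low values (mean RPKM of at least 1), namely CD68, ITGAX, CSF1R, ITGB2, ITGAM and CD86, by fitted log2 changes of 0.64 to 1.11. None was called lower, CD14 was under the filter, and CD33, CD38 and FCGR1A were not called. The cutoff of the study was kept, which asks for p below 0.01 without adjustment together with a log2 change of 0.5 or more either way, in limma on log2(RPKM + 0.1) over all genes tested. By that rule 18.3% of the 9710 genes tested were called in this line, 9.3% higher and 9.04% lower. The median log2 change was 0.65 over the 9 members and 0.00 over all genes tested. Groups did not overlap for 7 of the 10 members (CD14 included), 6 higher and 1 lower, where 37.1% of all genes tested did not overlap (20.2% higher and 17% lower).

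In NB4 cells FP54 raised 5 of 9 tested members (ITGAX, ITGAM, CD86, CD68 and ITGB2, log2 changes of 0.90 to 2.45) and lowered 2 (FCGR1A and CD38, -1.07 and -1.02). CD33 and CSF1R were not called and CD14 was again under the filter. Here 29.3% of the 9853 genes tested were called, 18.6% higher and 10.7% lower, so calls were more frequent among all genes than in MOLM-13 cells. The median log2 change was 0.90 over the 9 members and 0.07 over all genes tested. ITGAX passed the filter only through its FP54 libraries, and over the 8 members at 1 RPKM or more in both groups 4 were higher, 2 lower and the median was 0.52. Groups did not overlap for 8 of the 10 members, 6 higher and 2 lower, against 60.5% of all genes tested (34.3% higher and 26.2% lower). In bulk RNA, more marker mRNA in each cell and a larger share of cells that carry it cannot be told apart.

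**Figure D2:**
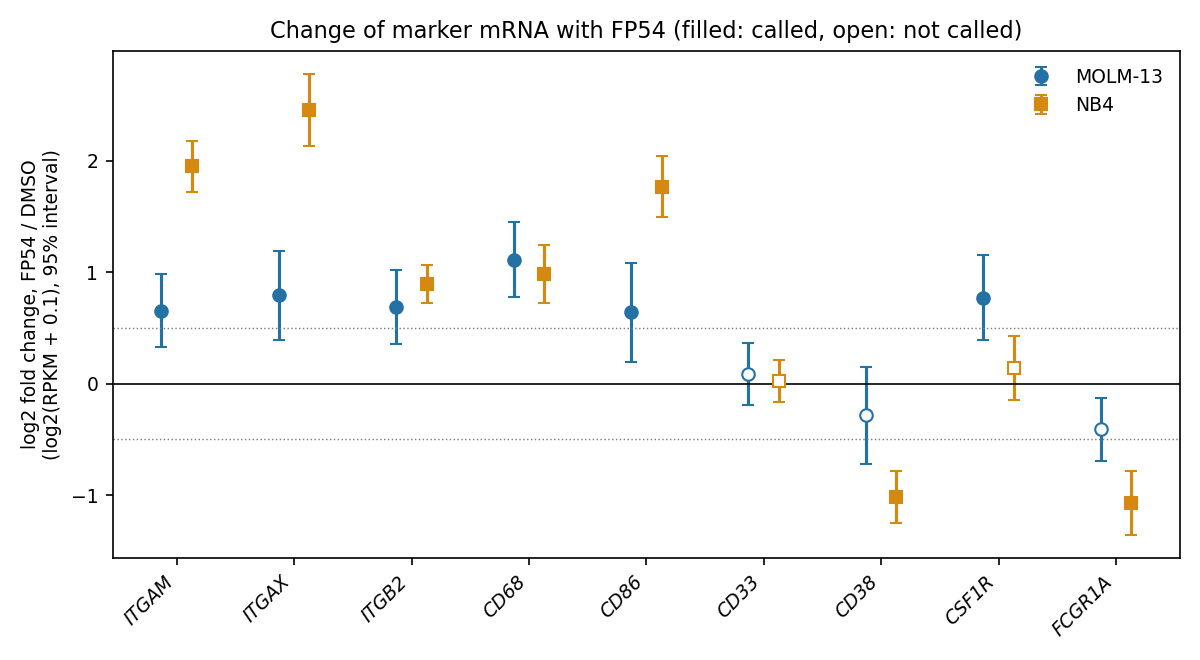
Fitted log2 fold change (FP54 over DMSO, log2(RPKM + 0.1)) of the 9 tested markers with 95% intervals, MOLM-13 as blue circles and NB4 as orange squares, filled where called, with dotted lines at a change of 0.5 either way. The ITGAM, ITGAX and CD86 changes are larger in NB4 cells, CSF1R is called in MOLM-13 cells alone, and CD38 and FCGR1A are called in NB4 cells alone.

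The integrin chains rose in both lines. ITGAM encodes CD11b, the alpha chain of complement receptor 3. In MOLM-13 cells ITGAM was at 14.6, 16.0 and 13.9 RPKM in the 3 DMSO libraries and at 26.7, 20.3 and 23.5 with FP54. In NB4 cells it was at 4.00, 3.39 and 3.53 RPKM with DMSO and at 14.8, 13.2 and 15.1 with FP54. All FP54 libraries lay above all DMSO libraries in each line. With FP54 the NB4 libraries (13.2 to 15.1 RPKM) came near those of MOLM-13 cells with DMSO (13.9 to 16.0). The tables of the lines were made separately, and levels between lines were not tested. The log2 change was 0.65 (SE 0.15, limma adjusted p = 0.0153) in MOLM-13 cells and 1.95 (SE 0.10, limma adjusted p = 3.46e-07) in NB4 cells. The difference between the lines, tested as an interaction in limma over the 12 libraries, was 1.30 on the log2 scale (SE 0.18, limma adjusted p = 0.000203). Of the 8849 genes tested this way, 14.2% had an adjusted p below 0.05, 10.5% with the more positive change in NB4 cells and 3.75% with the more negative one. Of the 9 members, 3 were of the first kind (ITGAX, ITGAM and CD86) and 2 of the second (CD38 and FCGR1A).

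ITGAX encodes CD11c, the alpha chain of complement receptor 4, which is abundant on dendritic cells and macrophages. Its MOLM-13 libraries held 15.7, 18.3 and 14.6 RPKM with DMSO and 34.7, 22.0 and 28.5 with FP54. In NB4 cells ITGAX went from 0.965, 0.902 and 0.658 RPKM with DMSO to 5.19, 4.71 and 5.12 with FP54. The groups were apart in both lines, and the NB4 DMSO mean of 0.842 RPKM was under the filter. The log2 changes were 0.79 (SE 0.18, limma adjusted p = 0.0161) and 2.45 (SE 0.15, limma adjusted p = 7.33e-07). Without the filter the MOLM-13 change had a limma adjusted p of 0.128 and was not called. The line difference of 1.66 (SE 0.24, limma adjusted p = 0.000333) was the largest among the members tested in the main fit. It depended on the setting. With a pseudocount of 1 it was 0.95, below the 1.10 of ITGAM, and under quantile normalization it was 1.17, below the 1.22 of ITGAM.

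ITGB2 encodes the beta chain that CD11a, CD11b, CD11c and CD11d share. The MOLM-13 libraries were at 76.5, 78.4 and 71.6 RPKM with DMSO and at 143, 103 and 122 with FP54. The NB4 libraries were at 30.7, 31.7 and 29.6 RPKM with DMSO and at 59.5, 55.4 and 56.6 with FP54. No library of one treatment reached the other, and the NB4 libraries were close to each other within a treatment. ITGB2 rose by 0.69 in log2 (SE 0.15, limma adjusted p = 0.0134) in MOLM-13 and by 0.90 (SE 0.08, limma adjusted p = 8.62e-06) in NB4 cells. The lines differed by 0.21 (95% interval -0.15 to 0.56, limma adjusted p = 0.433), which did not pass the test.

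The alpha chains were also set against the beta chain of the same library. In MOLM-13 cells the ratio of ITGAM plus ITGAX to ITGB2 RPKM was 0.410 ± 0.0229 (SD, n = 3) with DMSO and 0.422 ± 0.0102 with FP54, with overlapping libraries. In NB4 cells it went from 0.146 ± 0.0139 to 0.339 ± 0.0172, with no overlap. ITGAX per ITGAM was 1.09 ± 0.0473 and 1.20 ± 0.109 in MOLM-13 cells, which overlapped, and 0.231 ± 0.0408 and 0.349 ± 0.00900 in NB4 cells, which did not. The exact permutation test of 3 against 3 libraries cannot give a two-sided p below 0.1, so these ratios carry no test.

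The other alpha chains that pair with CD18 are CD11a and CD11d. ITGAL encodes CD11a, the alpha chain of LFA-1. It was high in MOLM-13 cells, at 122, 115 and 115 RPKM with DMSO and 105, 108 and 124 with FP54, and was not called there (log2 change -0.07, limma adjusted p = 0.725). In NB4 cells ITGAL went from 0.628, 0.633 and 0.640 RPKM to 5.06, 4.82 and 4.10, a log2 change of 2.69 (SE 0.13, limma adjusted p = 1.73e-07). That NB4 change exceeded the MOLM-13 change by 2.76 in log2 (SE 0.16, limma adjusted p = 5.92e-08). ITGAD, the CD11d chain whose gene neighbours ITGAX on chromosome 16, was at 0.0321 and 0.0581 RPKM in MOLM-13 cells, at most 5 reads in any library, and went from 0.205 ± 0.0358 to 1.91 ± 0.235 RPKM (SD, n = 3) in NB4 cells. ITGAL and ITGAD both passed the NB4 filter only through their FP54 libraries, and ITGAD has no test of the line difference. ICAM1, a ligand of the beta 2 integrins, was at 51.9 and 54.8 RPKM in MOLM-13 cells (not called) and rose from 61.6 to 155 RPKM in NB4 cells, a log2 change of 1.34 (limma adjusted p = 3.93e-06). Outside the beta 2 family, ITGA4 was not called in either line, and ITGB1 was at 17.9 and 18.0 RPKM in MOLM-13 cells and rose in NB4 cells from 11.1 to 18.0 RPKM.

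**Figure D3:**
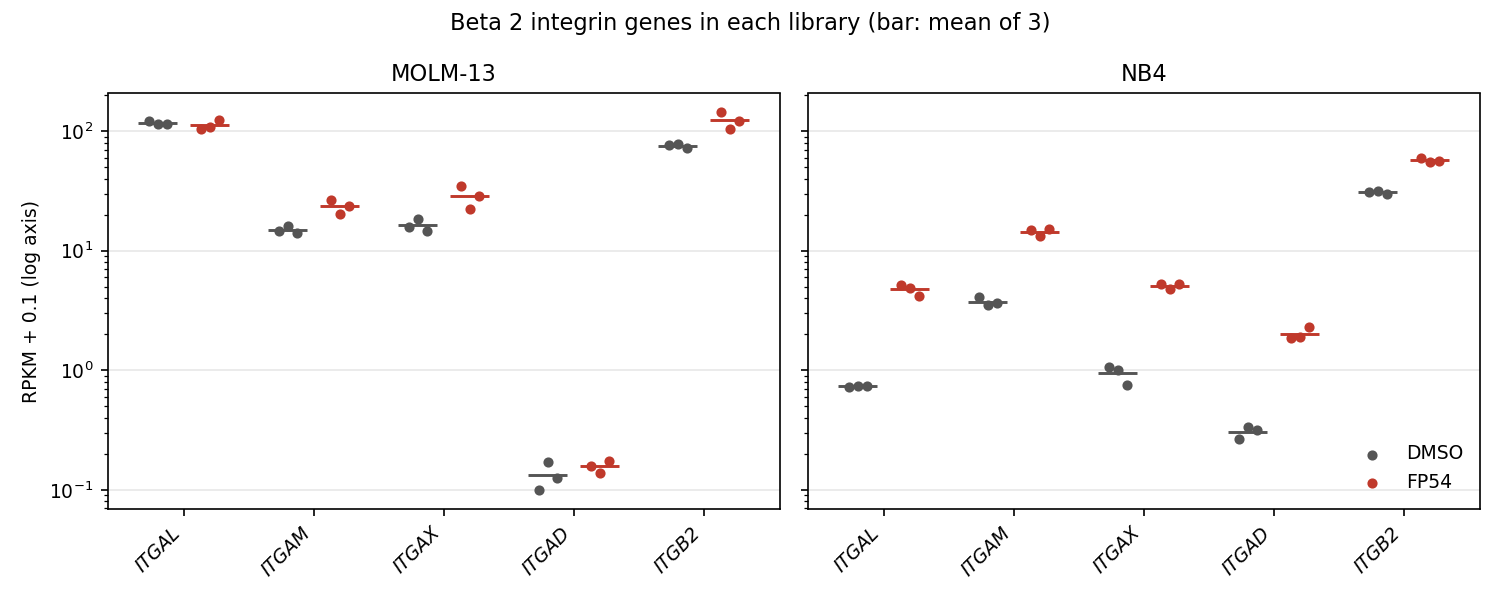
RPKM + 0.1 (log axis) of the beta 2 integrin chains in each library, DMSO grey and FP54 red, points for libraries and bars for means of 3. All 4 alpha chains and ITGB2 are higher with FP54 in NB4 cells, whereas in MOLM-13 cells ITGAL overlaps near 115 RPKM and ITGAD stays under 0.1 RPKM.

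CD68 was the most abundant member in MOLM-13 cells and rose by a like amount in both lines. Its libraries were at 186, 201 and 189 RPKM with DMSO and at 496, 402 and 357 with FP54 in MOLM-13 cells. In NB4 cells they were at 8.84, 10.8 and 8.71 RPKM with DMSO and at 20.9, 16.4 and 19.0 with FP54. The groups were far apart in MOLM-13 cells and apart in NB4 cells. The log2 changes were 1.11 (SE 0.15, limma adjusted p = 0.00257) and 0.99 (SE 0.12, limma adjusted p = 7.17e-05), and they differed by -0.13 (95% interval -0.54 to 0.29, limma adjusted p = 0.714). Of the 9 members that passed the filter in MOLM-13 cells, CD68 alone had a log2 change of at least 1. Its exons share 1765 bases (81.6% of its exonic length) with a long noncoding RNA annotated on the same strand, so reads of the pair cannot be separated here.

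CD86 rose from different starting levels. MOLM-13 cells held 23.1, 37.4 and 27.4 RPKM with DMSO and 46.2, 53.2 and 36.6 with FP54, and the highest DMSO library lay above the lowest FP54 library. NB4 cells held 1.08, 1.16 and 1.02 RPKM with DMSO and 4.01, 4.30 and 3.54 with FP54, clearly apart. The log2 changes were 0.64 (SE 0.20, limma adjusted p = 0.0481) and 1.77 (SE 0.12, limma adjusted p = 2.32e-06), with a line difference of 1.13 (SE 0.25, limma adjusted p = 0.00681). The MOLM-13 call was fragile. It was lost without DMSO replicate 1 (log2 change 0.48, limma adjusted p = 0.170), DMSO replicate 3 (0.61, 0.147), FP54 replicate 1 (0.62, 0.156) or FP54 replicate 2 (0.52, 0.106). It was also lost under median-ratio scaling (0.62, limma adjusted p = 0.0784), with eBayes without a trend (limma adjusted p = 0.0669) and with no filter (limma adjusted p = 0.238). The line difference of CD86 missed the threshold with a pseudocount of 1 (0.62, limma adjusted p = 0.0858) and under quantile normalization (0.68, limma adjusted p = 0.0531). CD80, the other ligand of CD28 and CTLA4, was lower than CD86 in both lines and under the filter, at 0.394 and 1.02 RPKM in MOLM-13 cells and 0.0342 and 0.113 in NB4 cells.

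CSF1R was called in MOLM-13 cells alone. There it went from 14.5, 17.4 and 13.5 RPKM with DMSO to 32.2, 23.9 and 22.4 with FP54, with no overlap and a log2 change of 0.77 (SE 0.17, limma adjusted p = 0.0149). In NB4 cells it was at 3.16, 3.19 and 2.45 RPKM with DMSO and 3.28, 2.99 and 3.39 with FP54, overlapping, with a log2 change of 0.14 (95% interval -0.15 to 0.42, limma adjusted p = 0.397). The difference between the lines was -0.64 (95% interval -1.11 to -0.16, limma adjusted p = 0.0721) and missed the threshold. It passed under 3 of the alternatives, with limma adjusted p = 0.0464 for a pseudocount of 1, 0.0250 for median-ratio scaling and 0.00925 for quantile normalization. The ligand gene CSF1 was under the filter but did not overlap, at 0.358 ± 0.0249 and 0.969 ± 0.108 RPKM (SD, n = 3) in MOLM-13 and 0.511 ± 0.0387 and 1.41 ± 0.0805 in NB4 cells. The other ligand gene, IL34, had at most 2 reads in any library.

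CD14 had the lowest level of the members in both lines. MOLM-13 cells had 0.624, 0.484 and 0.490 RPKM with DMSO, from 17, 13 and 14 reads, and 1.39, 1.46 and 1.11 RPKM with FP54, from 44, 14 and 22 reads. NB4 cells had 0.176, 0.0570 and 0.190 RPKM with DMSO, from 6, 2 and 7 reads, and 0.458, 0.417 and 0.557 RPKM with FP54, from 8, 8 and 12 reads. Every FP54 library lay above every DMSO library in both lines, by few reads in each. Summed over libraries and scaled by the library totals, the rate was 2.46 times higher with FP54 in MOLM-13 cells (exact 95% interval 1.68 to 3.64) and 3.40 times higher in NB4 cells (1.76 to 6.85), intervals that cover counting error only. CD14 was not tested with the filter. Fitted without it, the log2 change was 1.17 in MOLM-13 cells (limma adjusted p = 0.0599) and 1.30 in NB4 cells (limma adjusted p = 0.0234), and CD14 was called higher in both lines by the cutoff of the study.

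Low values moved as a whole in NB4 cells, which stands beside the CD14 result. Olfactory receptor genes, 400 genes taken here as a gauge of low values, averaged 0.00175 to 0.00387 RPKM in the NB4 DMSO libraries and 0.0509 to 0.0544 in the FP54 libraries. Genes above 0 numbered 14419 to 15048 and 16273 to 16618. In MOLM-13 cells the same receptor genes stayed between 0.00381 and 0.00833 RPKM. The NB4 difference in CD14, 0.141 against 0.478 RPKM, was larger than the rise of the receptor mean, and the part of that rise in CD14 was not tested. Among the CD14 partners, TLR4 was not called in either line (log2 change 0.60, limma adjusted p = 0.0569 in MOLM-13, and 0.23, 0.272 in NB4), nor was TLR2. TLR1 and TLR6 were not called in MOLM-13 cells and were called higher in NB4 cells, TLR1 from 1.47 to 2.50 RPKM (0.76, limma adjusted p = 0.00468) and TLR6 from 2.18 to 5.40 (1.29, limma adjusted p = 0.000332). LY96 went from a mean of 3.24 to 6.72 RPKM in MOLM-13 cells with overlapping libraries.

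**Figure D4:**
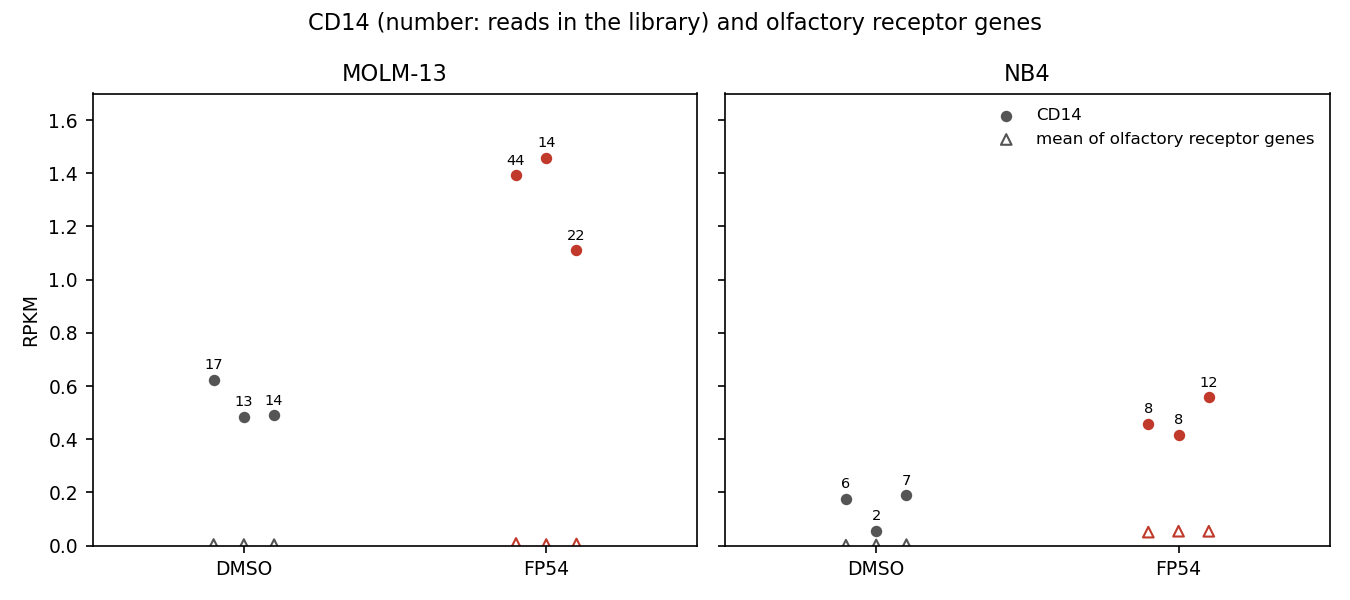
RPKM (linear axis) of CD14 (circles, with the reads of each library beside them) and mean RPKM of 400 olfactory receptor genes (triangles), DMSO grey and FP54 red. CD14 is higher in every FP54 library, with at most 44 reads, and the receptor mean is visibly above 0 only in the NB4 FP54 libraries, at 0.0509 to 0.0544 RPKM.

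Members in the other direction were FCGR1A and CD38. FCGR1A was at 18.4, 17.7 and 18.2 RPKM with DMSO and at 13.4, 13.1 and 14.4 with FP54 in MOLM-13 cells. In NB4 cells it was at 4.79, 5.88 and 6.06 RPKM with DMSO and at 2.93, 2.39 and 2.49 with FP54. All FP54 libraries lay below all DMSO libraries in both lines. FCGR1A fell by 1.07 in log2 in NB4 cells (SE 0.13, limma adjusted p = 7.72e-05). In MOLM-13 cells the log2 change was -0.41 (SE 0.13, limma adjusted p = 0.0479), under the fold cutoff, and so not called. The lines differed by -0.66 (SE 0.18, limma adjusted p = 0.0216). The exons of FCGR1A share 177 bases (8.21%) with H2BC18 on the opposite strand, and the pseudogenes FCGR1BP and FCGR1CP are close copies, so its level is uncertain to that extent. FCER1G, the gamma chain that CD64 signals through, went the other way, from 6.66 ± 0.760 to 13.1 ± 3.51 RPKM (SD, n = 3) in MOLM-13 (log2 change 0.94, limma adjusted p = 0.0134) and from 7.21 to 17.6 RPKM in NB4 cells (1.27, limma adjusted p = 8.89e-06).

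CD38 held 4.76, 4.59 and 5.45 RPKM with DMSO and 3.11, 4.13 and 5.09 with FP54 in MOLM-13 cells. In NB4 cells it held 6.34, 5.43 and 5.86 RPKM with DMSO and 2.86, 2.78 and 2.91 with FP54. The groups overlapped in MOLM-13 and were well apart in NB4 cells, with log2 changes of -0.28 (95% interval -0.72 to 0.15, limma adjusted p = 0.333) and -1.02 (SE 0.10, limma adjusted p = 2.68e-05). The lines differed by -0.73 (SE 0.22, limma adjusted p = 0.0414). BST1, the neighbouring paralog that also acts on NAD, was at 3.46 and 3.21 RPKM in MOLM-13 cells (not called) and at 0.503 and 0.963 RPKM in NB4 cells, under the filter.

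The CD38 and FCGR1A line differences lost their calls in several fits that left out libraries, while the values kept their sign. They ran from -0.92 to -0.58 for CD38 and from -0.77 to -0.59 for FCGR1A. Over all genes, 650 to 1423 passed in these fits, against 1258 in the main fit. Leaving out the libraries with the same number in both lines, neither passed without DMSO replicate 2 (limma adjusted p = 0.0664 for CD38 and 0.0509 for FCGR1A), DMSO replicate 3 (0.0953 and 0.121), FP54 replicate 2 (0.122 and 0.0685) or FP54 replicate 3 (0.131 and 0.0974), and CD38 also did not without DMSO replicate 1 (0.144). The differences of ITGAM, ITGAX and CD86 passed in each of those fits.

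CD33 gave the flattest values. It was at 33.2, 30.3 and 33.5 RPKM with DMSO and 36.0, 32.8 and 34.1 with FP54 in MOLM-13 cells, and at 13.5, 13.7 and 12.7 RPKM with DMSO and 14.1, 13.4 and 13.1 with FP54 in NB4 cells. The libraries overlapped in both lines. The log2 change was 0.09 (95% interval -0.19 to 0.36, limma adjusted p = 0.660) in MOLM-13 and 0.03 (95% interval -0.16 to 0.21, limma adjusted p = 0.817) in NB4 cells. Set against CD33 in the same library, ITGAM went from 0.460 ± 0.0588 to 0.683 ± 0.0618 (SD, n = 3) in MOLM-13 cells and from 0.274 ± 0.0250 to 1.06 ± 0.0868 in NB4 cells, with no overlap in either.

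Taken over the libraries of both lines at once, the genes moved together to different degrees. No correlation was computed within a line or within a treatment. After subtracting the mean of each cell line, the log2 level of ITGAM over the 12 libraries went most closely with CD37 (Pearson r = 0.995), BTG2 (0.994) and ITGAX (0.993), and 501 of 8849 genes had r above 0.9. CD37 (0.424 RPKM with DMSO and 2.60 with FP54) and ITGAX (0.842 and 5.01) passed the filter in NB4 cells only through their FP54 libraries. For CD14 the closest genes were C6orf89 (0.965), OGA (0.955) and SNX29 (0.955), with 132 genes above 0.9. Among the members r with ITGAM was 0.945 for CD86, 0.934 for ITGB2, 0.843 for CD68, 0.460 for CSF1R, 0.312 for CD33, -0.926 for CD38 and -0.963 for FCGR1A. These values describe 12 libraries that share 2 cell lines and 2 treatments, and they mostly restate the treatment difference.

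Partner genes of the members were next counted beside the share of calls over all genes tested. That share was 9.3% higher and 9.04% lower in MOLM-13 cells, and 18.6% and 10.7% in NB4 cells. Of 23 partners (ligands, coreceptors and signalling chains), 15 were tested in MOLM-13 cells, with 2 higher (FCER1G and TYROBP) and 0 lower and a median log2 change of 0.40, against 0.00 over all genes tested. Without FP54 replicate 2 or without DMSO replicate 2 that count was 5. In NB4 cells 14 partners were tested, with 10 higher, 0 lower and a median of 0.77, against 0.07 over all genes tested. Of these, ITGAL, ITGAD and CSF2RB passed the filter only through their FP54 libraries, and the other 11 had 7 higher, 0 lower and a median of 0.70. TYROBP, the DAP12 adaptor of many myeloid receptors, went from 248 to 481 RPKM in MOLM-13 (log2 change 0.94, limma adjusted p = 0.00483) and from 10.4 to 16.5 RPKM in NB4 cells (0.70, limma adjusted p = 0.00367). CSF2RB, the shared beta chain of the GM-CSF and IL3 receptors, went from 5.28 to 7.93 RPKM in MOLM-13 (0.56, limma adjusted p = 0.0614, not called) and from 0.761 to 1.80 in NB4 cells (1.16, limma adjusted p = 0.000219). CSF2RA and IL3RA were listed at 0 in all 12 libraries, and whether reads of these genes could be counted was not checked.

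Of 49 other monocyte and macrophage surface genes, 32 were tested in MOLM-13 cells, with 9 higher and 3 lower and a median log2 change of 0.38, or 6 and 3 of the 28 at 1 RPKM or more in both groups, with a median of 0.36. In NB4 cells 19 were tested, with 12 higher, 1 lower and a median of 0.81, or 10 and 1 of 17 at that level in both groups, with a median of 0.76. Over all genes tested, 9.3% were called higher and 9.04% lower in MOLM-13 cells, and 18.6% and 10.7% in NB4 cells. The genes called lower in MOLM-13 cells were CD83 (-0.73, limma adjusted p = 0.00543), CCR2 (-0.65, limma adjusted p = 0.0341) and AXL (-0.60, limma adjusted p = 0.0235). In NB4 cells it was CLEC4E (-1.43, limma adjusted p = 5.35e-05). CD4, which monocytes carry, was called higher in MOLM-13 cells, at 79.8 and 118 RPKM (0.56, limma adjusted p = 0.0240), and not in NB4 cells, at 16.3 and 19.6. The activating IgG receptor FCGR2A was at 14.8 and 21.1 RPKM in MOLM-13 cells (not called) and rose from 2.47 to 5.03 in NB4 cells (0.99, limma adjusted p = 4.72e-05). The tissue macrophage receptors CD163 and MRC1 were at or below 0.174 RPKM in every group.

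Of 26 granulocyte surface genes, 12 were tested in MOLM-13 cells with 5 higher, 1 lower and a median of 0.41 (3 and 1 of the 10 at 1 RPKM or more in both groups, median 0.21), and 10 in NB4 cells with 5 higher, 1 lower and a median of 0.59. The shares over all genes tested were 9.3% higher and 9.04% lower in MOLM-13 cells, and 18.6% and 10.7% in NB4 cells. The gene called lower was PLAUR in MOLM-13 (-0.55, limma adjusted p = 0.0278) and FUT4 in NB4 cells (-0.65, limma adjusted p = 0.00121). FUT4 was also lower but not called in MOLM-13 cells (-0.77, limma adjusted p = 0.172). CSF3R, the G-CSF receptor, rose from 32.0 to 48.9 RPKM in MOLM-13 (0.61, limma adjusted p = 0.0140) and from 4.20 to 6.80 in NB4 cells (0.69, limma adjusted p = 0.000429). ANPEP, the CD13 aminopeptidase, was at 4.01 and 6.16 RPKM in MOLM-13 cells (limma adjusted p = 0.0562, not called) and rose from 136 ± 15.7 to 553 ± 19.9 RPKM (SD, n = 3) in NB4 cells (2.02, limma adjusted p = 1.88e-07). FPR1, the formyl peptide receptor, rose in MOLM-13 cells from 0.660 to 3.11 RPKM (2.01, limma adjusted p = 0.00582), where it passed the filter only through its FP54 libraries. In NB4 cells it had 0 reads in the DMSO libraries and 17 to 34 in the FP54 libraries, under the filter. CEACAM8 was listed at 0 throughout.

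Of 21 progenitor surface genes, 10 were tested in MOLM-13 cells with 2 higher, 1 lower and a median of 0.04, and 8 in NB4 cells with 2 higher, 0 lower and a median of 0.38. For this list and the integrin genes below, the shares over all genes tested were 9.3% higher and 9.04% lower in MOLM-13 cells, and 18.6% and 10.7% in NB4 cells. Counts this small were not tested against those shares. The MOLM-13 count of 2 fell to 1 without DMSO replicate 1, DMSO replicate 3, FP54 replicate 1 or FP54 replicate 3. The NB4 count fell to 1 without DMSO replicate 2 or FP54 replicate 3, and to 0 under median-ratio scaling and quantile normalization. FLT3, the receptor tyrosine kinase of progenitors, was not called in either line, at 74.0 and 63.9 RPKM in MOLM-13 and 5.67 and 4.72 in NB4 cells, and CD34 and KIT were at or below 0.289 RPKM in every group. Of 23 other integrin genes, 9 were tested in MOLM-13 cells with 1 higher, 1 lower and a median of -0.07, and 11 in NB4 cells with 7 higher, 0 lower and a median of 0.71. In NB4 cells 4 of those 7 (ITGAL, ITGAD, ITGA7 and ITGB7) passed the filter only through their FP54 libraries, and the other 7 tested had 3 higher, 0 lower and a median of 0.44. The lists share some genes (ITGAL, for one, is in 2).

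**Figure D5:**
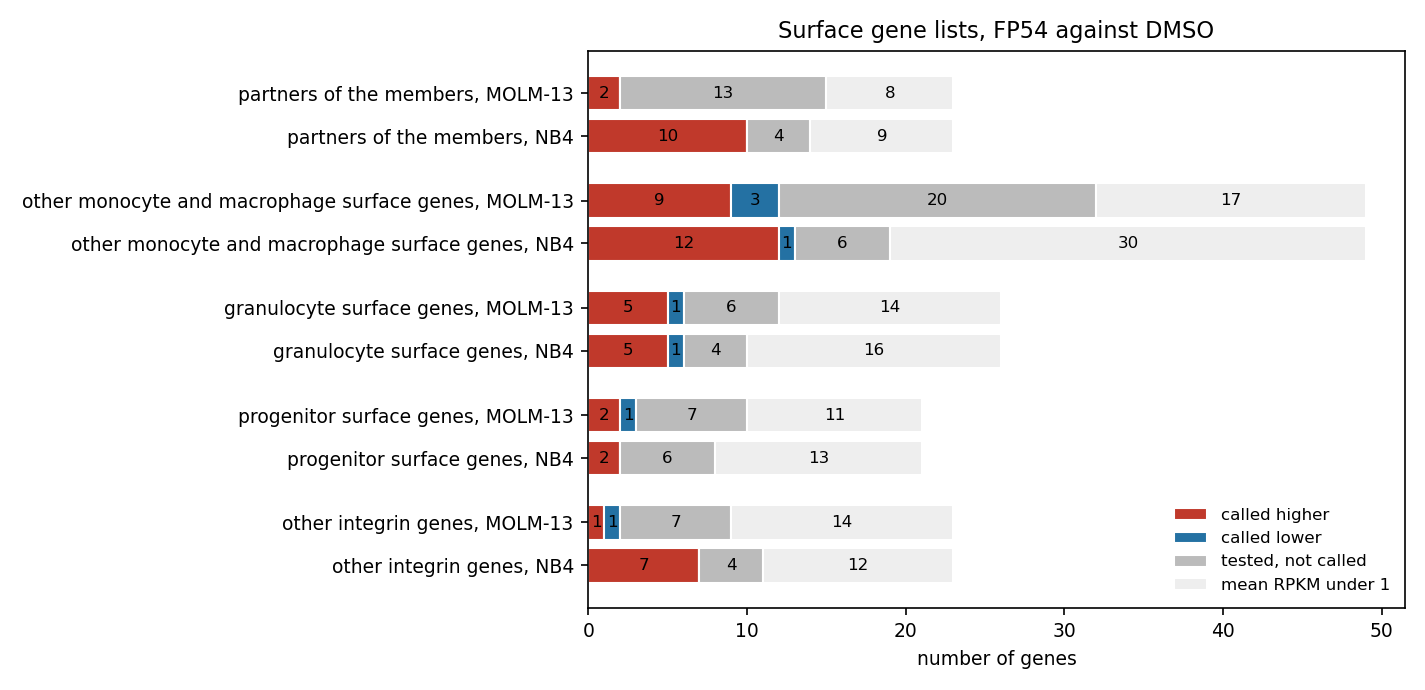
Number of genes in each surface gene list, split into called higher (red), called lower (blue), tested but not called (grey) and under the filter on low values (pale), for MOLM-13 and NB4 cells. Partners were called higher 2 times in MOLM-13 and 10 times in NB4 cells, and other integrin genes 1 and 7 times. Over all genes tested, 9.3% were called higher in MOLM-13 and 18.6% in NB4 cells.

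Markers of other lineages moved with the treatment in NB4 cells. The summed RPKM of 13 T and NK cell genes was 37.6 to 62.4 with DMSO and 87.9 to 95.9 with FP54 in NB4 cells, and 74.0 to 78.9 and 71.9 to 78.0 in MOLM-13 cells, most of it from NKG7, a granule membrane gene. CD3D was also called higher in NB4 cells (0.69, limma adjusted p = 0.000181). The sum of 8 B cell genes was 4.37 to 6.41 and 7.92 to 8.12 RPKM in NB4 cells, and 1.08 to 1.36 and 0.947 to 1.81 in MOLM-13 cells. In NB4 cells CD79B was called higher (0.57, limma adjusted p = 0.00740) and CD79A was not (0.05, limma adjusted p = 0.826). The sum of 12 erythroid and megakaryocyte genes went from between 2.41 and 3.69 to between 15.9 and 16.6 RPKM in NB4 cells, most of it from ITGA2B, the platelet integrin alpha IIb chain, which rose from 2.07 to 14.6 RPKM, and was 5.14 to 7.02 and 6.18 to 6.90 in MOLM-13 cells. EPOR of that list was not called in MOLM-13 cells (0.09, limma adjusted p = 0.749). It was called higher in NB4 cells (0.64, limma adjusted p = 0.0138), where it passed the filter only through its FP54 libraries. The part of these other lineage genes in the marker changes was not tested. Of the 7 genes of the myeloid lineage check, 7 were tested in MOLM-13 and 6 in NB4 cells, with 1 higher (PTPRC) and 1 lower (MPO) in each. The shares over all genes tested were 9.3% higher and 9.04% lower in MOLM-13 cells, and 18.6% and 10.7% in NB4 cells. MPO, which belongs to the promyelocyte stage, fell in both lines, by 2.06 in log2 in MOLM-13 (16.1 to 3.79 RPKM, limma adjusted p = 0.000985) and by 0.96 in NB4 cells (2170.2 to 1116 RPKM, limma adjusted p = 1.28e-05). ELANE, another gene of that stage, was at 186 RPKM with either treatment in MOLM-13 cells (-0.03, limma adjusted p = 0.938) and at or below 0.150 RPKM in NB4 cells.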

How the data were processed

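mRNA-seq of 12 libraries was used and 10 samples of other assays were left out. In making the files, the authors selected poly(A) RNA, made stranded libraries, trimmed reads with Cutadapt 4.8, removed duplicates with Clumpify, aligned to hg38 with STAR 2.7.11b, counted protein-coding GENCODE genes with featureCounts 2.0.3 and deposited RPKM. The strand setting is not given in the sources used here. Columns name treatment and replicate, and the cell line comes from the table. Whole reads were recovered from RPKM and GENCODE v44 exon lengths (whole within 0.05 for 98.7 to 99.3% of low values) for depth and for limma-voom alone.

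Genes averaging 1 RPKM or more over the 6 libraries of a line entered limma 3.58.1 (eBayes with trend, R 4.3.3) as log2(RPKM + 0.1), and p-values were adjusted by Benjamini-Hochberg over all genes tested. The line difference was an interaction over 12 libraries. Python 3.11.15 and pandas 2.3.3 were used for summaries. The fit was tested on simulated data. Alternatives were 2 pseudocounts, 2 filters, 2 scalings, eBayes settings, 2 cutoffs, limma-voom, subtraction of the olfactory receptor level, the replicate number as a block and leaving out each library. For the line difference, the same library number was left out in both lines.

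The members and the gene lists, written from general knowledge, were chosen with earlier results of these data known. The text names all members, genes listed for their role, and the 3 genes most like ITGAM and CD14. MPO, NKG7, ITGA2B, EPOR, CD79A, CD79B and the lineage genes given as checks come from marker lists and were picked after their values were seen. So were TLR1, TLR6, ITGA7, ITGB7, PLAUR, FUT4, CCR2, CD83, AXL and CLEC4E, which come from the gene lists. ITGB2 exons share 303 bases with ITGB2-AS1 on the opposite strand.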

Additional observations from a re-analysis of the deposited data

Results flagged for a closer look

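Of the 9 members tested in both lines, 5 had a different FP54 effect in NB4 than in MOLM-13 cells by the limma interaction term. On the log2 scale the NB4 change minus the MOLM-13 change was 1.66 for ITGAX, 1.30 for ITGAM and 1.13 for CD86, which rose in both lines, and -0.73 for CD38 and -0.66 for FCGR1A. ITGAX, which averaged under 1 RPKM in the NB4 DMSO libraries, was at 0.95 with a pseudocount of 1. The other 4 did not pass, with values of 0.21 for ITGB2, -0.06 for CD33, -0.13 for CD68 and -0.64 for CSF1R. Over all 8849 genes tested this way, 14.2% passed. All 5 members passed in 8 of 17 alternatives. CD38 and FCGR1A did not pass with the replicate number as a block or in 4 of the fits that left out 1 library number, and CD38 not in a further one.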

How the results depend on the processing

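All 7 calls of NB4 cells were kept in 17 of 19 alternatives, and all 6 of MOLM-13 cells in 11. With p below 0.05 and a log2 change of at least 1, 1 member was called in MOLM-13 cells. With a mean RPKM of at least 5, where fewer members are tested, 3 were called in NB4 cells and the line difference was called for 1. Leaving out 1 library gave 5 to 7 calls in MOLM-13 and 7 in NB4 cells. Leaving out the same library number in both lines gave 3 to 5 for the line difference.

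Replicate numbers are shared by the treatments, but same-numbered libraries did not go together, with correlations of their deviations from the group mean from -0.26 to 0.12. In MOLM-13 cells some libraries of different numbers did, DMSO 1 with FP54 3 (r = 0.59), DMSO 2 with FP54 1 (0.49) and DMSO 3 with FP54 2 (0.47). Other such pairs went as low as -0.46. In NB4 cells libraries of different numbers lay between -0.26 and 0.22. A block by such pairs was not fitted. With the replicate number as a block, 6 members were called in MOLM-13 and 7 in NB4 cells, and 3 for the line difference, without CD38 (-0.73) and FCGR1A (-0.66).

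Changes near 0 turned sign. In NB4 cells CD33 was at -0.17 and CSF1R at -0.056 under median-ratio scaling, CSF1R at -0.12 under quantile normalization, and CD33 between -0.0094 (DMSO replicate 3 left out) and 0.0496 when 1 library was left out. The CD33 line difference was 0.0088 with DMSO replicate 2 left out in both lines. Median-ratio scaling moved the NB4 median of all genes from 0.07 to -0.13, with 1168 genes higher and 2010 lower against 1834 and 1050, and quantile normalization gave 1280 and 1363. The cause was not tested. Depth limits CD14, whose libraries held 2 to 44 reads. For the 5 surface gene lists, 153 counts of higher calls under the alternatives stayed within 1.5 times the count reported and 37 did not, among them the MOLM-13 partners (2), which were 4 under quantile normalization and limma-voom.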
